A study of Drosophila melanogaster with 12 samples.

Results

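The 9 genes described here encode the single TNF of Drosophila, its receptors and the core of the JNK pathway: egr, grnd, wgn, Tak1, hep, bsk, puc, Jra and kay. They are 9 of the 13726 genes with values in the 12 libraries, and all 9 were found by their FlyBase identifiers. The set was chosen because grnd went from no counts to many in ageing TFCs-CpCs. The TFCs-CpCs ageing values of the 9 genes are therefore given as a description, with no test.

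Eiger, the product of egr, is a TNF ligand that can bind the receptors Grindelwald (grnd) and Wengen (wgn). Signal passes to the kinase cascade of Tak1, hemipterous (hep) and basket (bsk, the JNK itself), and from there to the AP-1 transcription factor, whose subunits are encoded by Jra (Jun) and kay (Fos). puc encodes a phosphatase that inactivates JNK and is itself a JNK target gene, so that its transcript is widely used as a reporter of the pathway, which is known in flies for roles in stress responses, cell death and tissue repair.

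The study profiled somatic support cells of the ovarian germline stem cell niche by bulk RNA-seq, with 2 libraries in each of 6 groups. Terminal filament cells and cap cells (TFCs-CpCs, labelled as terminal filament and cup cells) and escort cells (ECs) were each collected from 1w- and 4w-old females, and ECs were also collected from control females and from females carrying a Smu1 RNAi construct, Smu1 being a splicing factor. TFCs-CpCs were sorted as the cells with high GFP from bab1-Gal4 / UASp-tau::mGFP6 ovaries, a driver that is also active in ECs at a lower level, whereas ECs came from ovaries in which ptc-LexA drove lexAop-mCD8::GFP. In the RNAi pair, both genotypes carried ptc-LexA, LexAop-mCD8::GFP, ptc-Gal4 and tub-Gal80ts, only the RNAi females carried UAS-Smu1 RNAi, and both were kept at 29 °C for 2 weeks. Every library came from the pooled ovaries of many females, and from far fewer sorted cells for TFCs-CpCs than for ECs. Cell group, genotype, sort and cell number thus changed together and cannot be told apart in a comparison of TFCs-CpCs with ECs. In such sorted pools, fewer cells of a type and less RNA per cell cannot be told apart either.

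Libraries held 12078227 to 52487930 counts. The summed level of 7 TFC-CpC marker genes was 308 to 361 cRPKM in TFCs-CpCs at 1w, 530 to 1393 at 4w and 151 to 186 in the 4 ECs libraries of the ageing series, and 7 EC markers summed to 394 to 445, 543 to 1700 and 1370 to 1968. cRPKM is the corrected RPKM, a level per mappable length and per depth of the library, so that it can be set side by side between genes. One defining TFC marker, hh, the Hedgehog ligand, went against the label. It was at 5.35 and 7.65 cRPKM in TFCs-CpCs at 1w and at 118 and 91.5 cRPKM in ECs of that age. The other 6 TFC-CpC markers were higher in TFCs-CpCs at 1w with no overlap. Of the 7 EC markers, 6 were lower in TFCs-CpCs at 1w with no overlap and 1 was higher. At 4w 6 of the 7 TFC-CpC markers were higher in TFCs-CpCs with no overlap and 1 overlapped. Of the 7 EC markers at 4w, 5 were lower in TFCs-CpCs with no overlap, 1 was higher and 1 overlapped. The EC marker that overlapped was Wnt4, at 307 and 1390 cRPKM in TFCs-CpCs and at 371 and 257 in ECs. Muscle transcripts separated the TFCs-CpCs ages: 18 sarcomere genes summed to 60710 and 63670 cRPKM at 1w and to 2035 and 2143 cRPKM at 4w, and 16 of the 18 were lower at 4w with no overlap. Transcripts of late follicle cells moved the other way, with 15 genes summing to 4402 and 14840 cRPKM at 1w and to 37190 and 155600 at 4w. In the higher of these 4w libraries, replicate 1, the chorion gene Cp15 alone was at 73479 cRPKM. It was at 60.4 cRPKM in 4w replicate 2 and at 62.4 and 73.0 at 1w. Smu1, the targeted gene, was at 26.4 and 23.6 cRPKM in the control ECs and at 4.17 and 5.51 in the RNAi ECs, a log2 fold change of -2.34 ± 0.19 (SE; edgeR quasi-likelihood test, adjusted p = 6.44e-05).

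**Figure D1:**
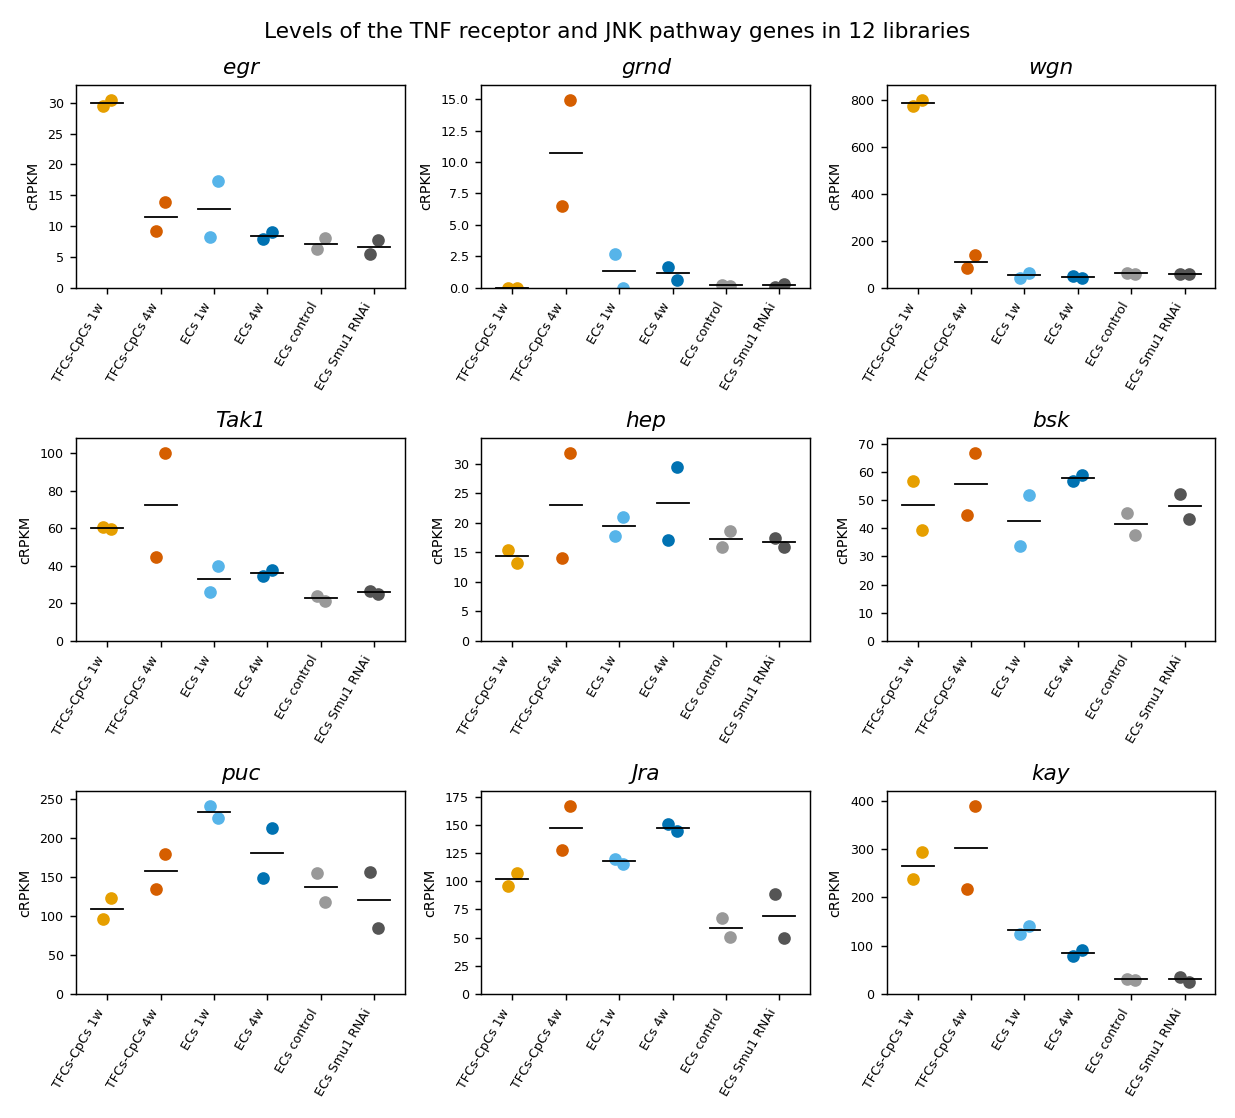
Level of each of the 9 genes in cRPKM (linear axis from 0) in the 12 libraries, with 1 point per library and a bar at the mean of the 2 libraries of a group. wgn stands at 773 and 799 cRPKM in TFCs-CpCs at 1w and at or below 138 in every other library, grnd is above 2.71 cRPKM only in TFCs-CpCs at 4w, and kay is higher in all TFCs-CpCs libraries than in any ECs library.

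The receptor gene grnd (FBgn0032682, chromosome 2L:18485417-18488021, plus strand, dm6) had 0 counts in both TFCs-CpCs libraries at 1w and 589 and 977 counts at 4w. In levels, the old libraries were at 6.48 and 14.94 cRPKM. Counts of grnd were thus found in both old libraries and in neither young one. By counting error alone, a library with 0 counts may still have held up to 3. The mean of the 4w libraries, 11.27 and 26.0 CPM, stood 299.7-fold above the mean of these limits at 1w. The lower 4w library stood 168-fold above the higher of the 1w limits. These folds are no firm bounds, as the cDNA was amplified by PCR from few cells and the limits cover counting error only. In the same 1w libraries the pathway gene scaf had 0 and 299 counts. In ECs, grnd was found at 57 and 0 counts at 1w and at 48 and 17 counts at 4w, or 2.71 and 0 cRPKM against 1.68 and 0.58 cRPKM. The ECs ages overlapped, and a single 1w library held all of the 1w counts. In the RNAi pair grnd was near its limit of detection in all 4 libraries, with 5 and 4 counts in control ECs and 2 and 7 in RNAi ECs, and it did not pass the filter on low counts.

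Of the 2100 exon bases of grnd, 275 (13.1%) overlap exons of kon on the opposite strand. The study describes its libraries as strand-specific, but the sources used here do not say whether strand was used in counting. kon, which encodes a transmembrane proteoglycan with known roles in muscle attachment and glia, had 7032 and 7512 counts in the 1w TFCs-CpCs libraries and 664 and 1679 counts at 4w. Among the TFCs-CpCs libraries, those with grnd at 0 were thus those with the most kon counts. In ECs 1w replicate 2, where grnd was also at 0, kon had 30 counts. Of the 15 late follicle genes, 11 were higher with no overlap in the 4w libraries, where grnd was found, and 4 overlapped. Replicate 1 had the larger follicle sum (155600 against 37190 cRPKM) and the lower grnd level (6.48 against 14.94 cRPKM). Whether follicle cells had a part in the grnd level was not tested. The 8 hemocyte markers summed to 73.2 and 76.7 cRPKM in TFCs-CpCs at 1w and to between 76.1 and 165 at 4w, and 1 of the 8 was higher at 4w with no overlap, the other 7 overlapping. Among them the defining markers Hml and NimC1 were at or below 0.02 cRPKM in all 4 libraries, and the part of hemocytes in the grnd level was not tested.

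The other receptor gene, wgn (FBgn0030941, chromosome X:18624042-18634908, minus strand), reached 773 and 799 cRPKM in young TFCs-CpCs, against 82.1 and 138 cRPKM in old ones. Every 1w value was far above every 4w value, and the fitted log2 difference was -3.11 ± 0.42 (SE, 2 libraries per age), 8.66-fold lower at 4w. In ECs wgn was at 40.9 and 63.2 cRPKM at 1w, at 48.8 and 42.2 at 4w, at 62.5 and 57.9 in controls and at 59.9 and 56.8 in RNAi ECs. These 8 libraries spanned a narrow range and all lay below the lowest TFCs-CpCs library. At 1w, wgn was 19.3-fold higher in TFCs-CpCs than in ECs (log2 4.27 ± 0.35, adjusted p = 0.000868), whereas at 4w the difference of 1.38 ± 0.40 did not pass the threshold (adjusted p = 0.125). It did pass in 4 alternatives, with DESeq2 (1.36), with all 12 libraries in one fit (1.45), with no filter on low counts (1.47) and without TFCs-CpCs 4w replicate 1 (1.67).

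The muscle transcripts moved with wgn, as the libraries with the highest wgn were those with the 60710 and 63670 cRPKM of muscle genes. In ECs, muscle genes went from 504 and 1438 cRPKM at 1w to 146 and 163 at 4w while wgn stayed within 40.9 to 63.2 cRPKM. The part of muscle cells in the wgn level of TFCs-CpCs was not tested.

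**Figure D2:**
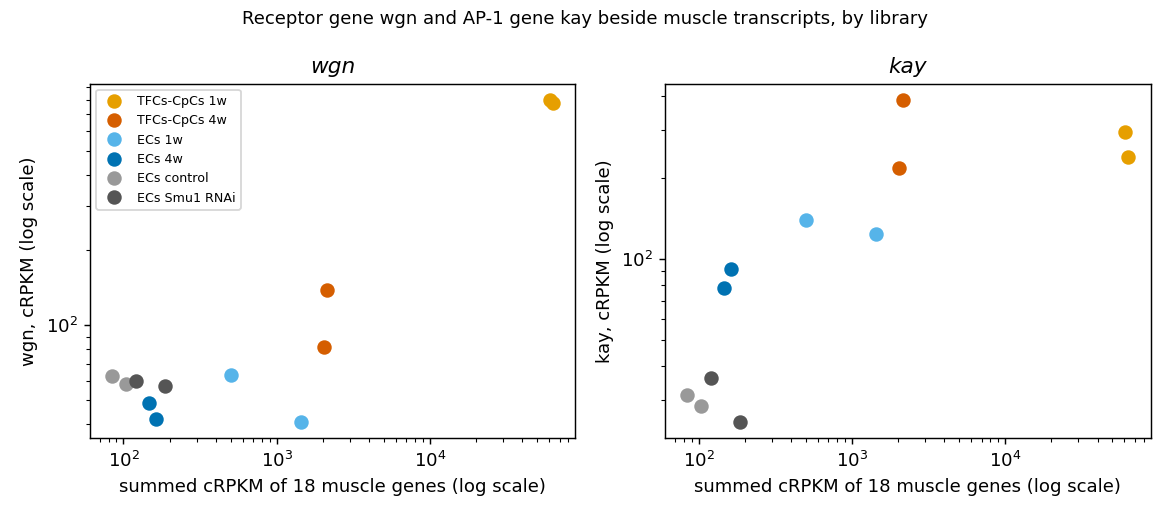
Level of wgn (left) and kay (right) in cRPKM against the summed cRPKM of 18 muscle genes, both on log axes, with 1 point per library coloured by group. The TFCs-CpCs 1w libraries are apart at 60710 and 63670 cRPKM of muscle transcripts with the highest wgn, whereas kay is as high in the 4w libraries, at 2035 and 2143 cRPKM of muscle transcripts.

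The ligand gene egr was at 29.4 and 30.5 cRPKM in young TFCs-CpCs and at 9.19 and 13.8 cRPKM in old ones. The young libraries were about alike and lay above both old ones, with a log2 difference of -1.65 ± 0.38. In ECs egr was at 8.17 and 17.4 cRPKM at 1w and 7.92 and 8.98 at 4w, and at 6.23 and 8.03 in controls and 5.44 and 7.75 in RNAi ECs. TFCs-CpCs at 1w were thus the highest group, and the other 5 groups lay between 5.44 and 17.4 cRPKM. The difference from ECs at 1w was 1.57 ± 0.48 on the log2 scale (adjusted p = 0.0607), a call that was lost without TFCs-CpCs 1w replicate 1 (1.58), without TFCs-CpCs 1w replicate 2 (1.68) or without ECs 1w replicate 1 (1.04). At 4w it was 0.55 ± 0.55 (adjusted p = 0.623).

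Set side by side per length, wgn exceeded egr 26.3- and 26.2-fold in TFCs-CpCs at 1w, 8.93- and 9.97-fold at 4w, and at least 3.64-fold in each ECs library. wgn also exceeded grnd in every library where both were found, by 12.7- and 9.21-fold in TFCs-CpCs at 4w, where the receptors came closest, and by 15.1-fold in the 1 ECs 1w library with grnd counts. wgn was therefore the more abundant receptor transcript in all 12 libraries.

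Of the kinases, Tak1, which encodes the MAP3K of the cascade, was at 60.9 and 59.6 cRPKM in TFCs-CpCs at 1w and at 44.6 and 100.1 at 4w. The old libraries straddled the young ones (log2 difference -0.02 ± 0.44). ECs held 25.9 and 39.7 cRPKM at 1w, 34.5 and 38.0 at 4w, 24.0 and 21.2 in controls and 26.6 and 25.1 in RNAi ECs. All 8 lay below all 4 TFCs-CpCs libraries. At 1w Tak1 was 2.35-fold higher in TFCs-CpCs (log2 1.23 ± 0.32, adjusted p = 0.0422), a call lost without TFCs-CpCs 1w replicate 1 (1.20), without ECs 1w replicate 1 (0.86) and on the cRPKM scale (0.89 with a pseudocount of 1). At 4w the log2 difference was 1.10 ± 0.46 (adjusted p = 0.23).

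hep, the MAP2K gene, and bsk, the JNK gene, varied least of the 9, by 2.41-fold for hep (13.2 to 31.8 cRPKM) and 1.97-fold for bsk (33.8 to 66.8 cRPKM) from the lowest to the highest of the 12 libraries. Their TFCs-CpCs ages overlapped, with log2 differences of 0.40 ± 0.45 for hep and -0.07 ± 0.39 for bsk. Against ECs at 1w, hep differed by -0.08 ± 0.31 (adjusted p = 0.886) and bsk by 0.53 ± 0.39 (adjusted p = 0.385). A p that misses the threshold does not show the levels to be alike.

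The phosphatase and target gene puc was highest in ECs at 1w, with 241 and 226 cRPKM, and lowest on average in TFCs-CpCs at 1w, with 96.1 and 123 cRPKM. At 4w the groups met, with 135 and 180 cRPKM in TFCs-CpCs and 148 and 213 in ECs. The ages did not overlap in either cell group, and puc was higher with age in TFCs-CpCs and lower in ECs. The fitted log2 differences were 0.26 ± 0.34 in TFCs-CpCs and -0.30 ± 0.28 in ECs (adjusted p = 0.999), and the difference between them was not tested. At 1w puc was lower in TFCs-CpCs than in ECs by a log2 difference of -0.73 ± 0.24 (adjusted p = 0.0704), short of the fold needed for a call. On the cRPKM scale, where the median of all genes itself stood at -0.43, it passed, at -1.095 with a pseudocount of 1.

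The AP-1 subunit genes differed from each other in where they were high. kay (FBgn0001297, chromosome 3R:29765995-29794113, plus strand) was at 238 and 294 cRPKM in TFCs-CpCs at 1w, at 216 and 389 at 4w, at 123 and 140 in ECs at 1w and at 77.9 and 91.5 in ECs at 4w. All TFCs-CpCs libraries lay above all ECs libraries at both ages. kay was 2.59-fold higher in TFCs-CpCs at 1w (log2 1.38 ± 0.25, adjusted p = 0.0136) and 3.84-fold higher at 4w (log2 1.94 ± 0.44, adjusted p = 0.0761). The 4w call was lost without ECs 4w replicate 1 (1.81) or replicate 2 (2.02). In ageing ECs kay was lower in both 4w libraries, but the log2 difference of -0.57 ± 0.29 did not pass (adjusted p = 0.956).

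Jra was at 95.6 and 108 cRPKM in TFCs-CpCs at 1w and 128 and 167 at 4w, and at 120.04 and 115.3 in ECs at 1w and 151 and 145 at 4w. The 4w libraries were above the 1w ones in both cell groups, with log2 differences of 0.27 ± 0.32 in TFCs-CpCs and 0.40 ± 0.29 in ECs (adjusted p = 0.999, not a call). Between cell groups Jra differed by 0.16 ± 0.24 at 1w (adjusted p = 0.696), although its cRPKM was lower in both TFCs-CpCs libraries, a sign that turned with the scaling. The level of kay over that of Jra was 2.49 and 2.73 in TFCs-CpCs at 1w and 1.69 and 2.33 at 4w, against 1.03 and 1.21 in ECs at 1w, 0.516 and 0.632 at 4w and 0.408 to 0.568 in the RNAi pair. kay was thus the more abundant subunit transcript in all TFCs-CpCs libraries, and Jra in all ECs libraries from 4w onwards and in the RNAi pair. Exons of Jra share 39 bases with RpLP0-like on the opposite strand.

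The ECs of the RNAi pair held less kay and Jra than the ECs of the ageing series, at 24.8 to 36.1 cRPKM for kay and 49.7 to 88.5 cRPKM for Jra. These ECs differed in genotype, temperature and age together, which cannot be told apart, and no test was made.

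**Figure D3:**
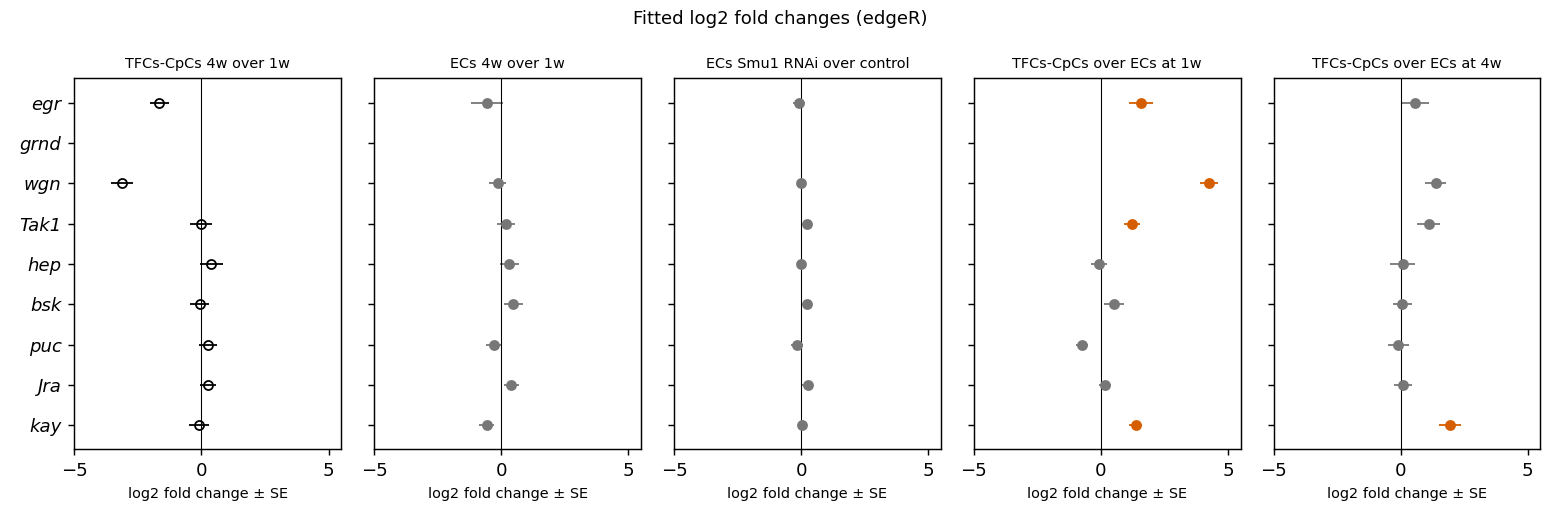
Log2 fold change ± SE from edgeR for each gene (rows) in the 5 comparisons (panels), with calls in orange, other tested values in grey and the untested TFCs-CpCs ageing values as open circles; grnd is left out. Calls are seen only between cell groups, wgn, kay, Tak1 and egr at 1w and kay at 4w.

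Counted over the set, 4 of the 8 genes other than grnd were called higher in TFCs-CpCs than in ECs at 1w and none was called lower, a call being a change by 1 or more on the log2 scale with an adjusted p under 0.1. Of all 10173 genes tested 31.2% were called, 14.0% as higher and 17.2% as lower, and the median log2 fold change was 0.88 over the 8 genes and -0.19 over all. The libraries of the cell groups did not overlap in cRPKM for 7 of the 8 (67.6% of all genes). In TFCs-CpCs, egr, wgn, Tak1 and kay were higher and hep, puc and Jra lower. These directions depend on the scale, as the median of all genes stood at -0.43 on log2(cRPKM + 1). In TMM-scaled CPM, Jra was higher in TFCs-CpCs (189 and 192 against 143 and 164) and hep overlapped. wgn and kay were called under every alternative tried at 1w. Of the 18 muscle genes 17 were also called higher in TFCs-CpCs at 1w (median log2 fold change 6.81), and their part in the 4 calls was not tested. At 4w 1 of 8 was called (kay, higher), beside 6.12% of 9908 genes (3.74% higher, 2.37% lower), with medians of 0.33 and -0.03, and 4 of 8 did not overlap (egr, wgn, Tak1 and kay, all higher), beside 56.2% of all genes. Both comparisons share their libraries with the ageing comparisons.

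With age in TFCs-CpCs, the contrast that chose the set, the ages did not overlap for 5 of the 9 (grnd, puc and Jra higher, egr and wgn lower), where 49.8% of all genes did not, and nothing is read from this count. In ageing ECs none of the 9 genes was called by edgeR, and none had an unadjusted p under 0.05 or was called by DESeq2. There the share of all 10675 genes was 0.103%. The log2 differences ran from -0.57 (kay) to 0.48 (bsk), with SEs of 0.28 to 0.62 apart from grnd at 1.98. The ages did not overlap for 4 of the 9 (bsk and Jra higher, puc and kay lower), beside 34.9% of all genes.

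In Smu1 RNAi ECs none of the 8 genes tested was called by edgeR or DESeq2, and none had an unadjusted p under 0.05, beside 1.11% of 9933 genes called (0.735% higher). Their log2 differences were small, from -0.16 ± 0.23 (puc) to 0.26 ± 0.22 (Jra). Tak1, at 24.0 and 21.2 cRPKM in controls and 26.6 and 25.1 in RNAi ECs, was the 1 gene whose libraries did not overlap (log2 0.23 ± 0.11, adjusted p = 0.504), where 41.1% of all genes did not overlap. puc ranged widely within each genotype, with 156 and 118 cRPKM in controls and 157 and 84.3 in RNAi ECs.

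The rest of the pathway was followed in 47 genes: 14 upstream kinases, adaptors and activators, 19 regulators and 14 target genes. In Smu1 RNAi ECs 2 of the 47 genes were called, both of them target genes and both higher, beside 1.11% of all genes. The MAP4K gene msn, named after its values were seen, was lower, at 28.8 and 29.9 cRPKM in controls and 19.5 and 20.6 in RNAi ECs (log2 -0.51 ± 0.10, edgeR adjusted p = 0.0198), short of the fold needed for a call. scaf, which encodes a serine protease-like protein, was at 4.55 and 2.05 cRPKM in controls and at 18.1 and 15.9 cRPKM in RNAi ECs. Both RNAi libraries lay above both controls, and scaf was 5.21-fold higher (log2 2.38 ± 0.28, edgeR adjusted p = 0.000809). Ilp8, a relaxin-like hormone that is released by damaged tissue, was at 41.7 and 26.7 cRPKM in controls and at 108 and 85.3 in RNAi ECs. It was 2.89-fold higher, again with no overlap (log2 1.53 ± 0.20, adjusted p = 0.00161). Both calls were kept in each of the 4 fits without 1 library, but with all 12 libraries in one fit their adjusted p was 1.0. The other JNK target genes, Mmp1 (log2 0.28 ± 0.15, adjusted p = 0.527) and puc among them, were not called, so that the list's 2 rises stand beside a median of 0.11 over its 14 genes and of -0.002 over all genes. The late follicle genes summed to 8603 and 12040 cRPKM in RNAi ECs against 5045 and 3897 in controls, but 12 of the 15 overlapped, 2 were higher and 1 lower without overlap, and none was called. Cp15 alone was at 7965 cRPKM in RNAi replicate 2, and the part of follicle cells in these values was not tested.

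With age in TFCs-CpCs, 1 of the 46 pathway genes tested was called higher and 3 lower, beside shares among all 9249 genes that would give a similar count (1.25% higher and 3.92% lower, 5.18% in all). Mmp1, the matrix metalloprotease, went from 5.01 and 3.65 cRPKM at 1w to 20.7 and 30.2 at 4w, 4.83-fold higher (log2 2.27 ± 0.43, adjusted p = 0.0614). Ask1, a MAP3K, went from 127 and 110.0 cRPKM at 1w to 13.8 and 18.2 at 4w, 8.96-fold lower (log2 -3.16 ± 0.37, adjusted p = 0.0144). Neither overlapped between the ages. The receptor tyrosine kinase Pvr fell from 101 and 127 cRPKM to 24.2 and 9.82 (log2 -2.98 ± 0.56, adjusted p = 0.0603), and the filamin gene cher from 83.8 and 85.1 to 19.9 and 20.02 (log2 -2.35 ± 0.34, adjusted p = 0.0261). Ask1, Pvr and cher were thus high in the same libraries as the muscle genes, whose part in these falls was not tested. The number of calls varied with the libraries used, as it was 0 without TFCs-CpCs 1w replicate 1 and 11 without 4w replicate 2, and 10 without 4w replicate 1. In ageing ECs no pathway gene was called by edgeR, and 2 of 46 had an unadjusted p under 0.05. Named after their values were seen, these were Mmp1, lower at 4w (log2 -1.15 ± 0.32, edgeR adjusted p = 0.406), and Mkk4, higher. Mkk4, a MAP2K gene, differed by 1.03 ± 0.36 (edgeR adjusted p = 0.746). DESeq2 called 1, Mmp1, which the study lists among the genes changed in both expression and splicing in ageing ECs.

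Between cell groups at 1w, 12 of the 46 pathway genes were called higher in TFCs-CpCs and 9 lower, beside 14.0% and 17.2% of all genes, so that the count of lower genes was near the background. Among regulators 7 of 18 were called higher, such as the small GTPase gene Cdc42 at 157 and 184 cRPKM against 32.4 and 36.1 in ECs (log2 2.68 ± 0.28, adjusted p = 0.00181), and 2 lower. Among target genes 4 of 14 were called lower and 2 higher, with a median log2 fold change of -1.54. Mmp1 was 16.9-fold lower in TFCs-CpCs (log2 -4.08 ± 0.33, adjusted p = 0.000811), and the pro-apoptotic gene hid was at 0.72 and 3.56 cRPKM against 36.5 and 45.3 in ECs (log2 -3.91 ± 0.75, adjusted p = 0.0157). upd3, a ligand of the JAK-STAT pathway, was also lower on few counts, 25 and 7 in TFCs-CpCs and 219 and 57 in ECs (log2 -4.54 ± 1.54, adjusted p = 0.0777). Upstream genes were called in both directions, 3 each, with Ask1 12.2-fold higher and the adaptor gene Traf4 (log2 -4.94 ± 1.07, adjusted p = 0.0241) and the MAP3K activator gene Gadd45 (log2 -2.35 ± 0.27, adjusted p = 0.00267) lower.

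At 4w 3 of the 46 pathway genes were called higher in TFCs-CpCs and 2 lower, beside 3.74% and 2.37% of all genes (6.12% called). Cdc42 was at 179 and 210 cRPKM against 29.9 and 30.9 in ECs (log2 2.79 ± 0.37, adjusted p = 0.0237), a difference seen at both ages. The glutathione transferase gene GstD1 was at 2371 and 3125 cRPKM against 708 and 556 (log2 2.23 ± 0.43, adjusted p = 0.0524), and the MAP3K gene Mekk1 at 20.7 and 32.1 against 9.56 and 10.1 (log2 1.53 ± 0.39, adjusted p = 0.0962). Traf4 (log2 -1.92 ± 0.49, adjusted p = 0.0998) and Gadd45 (log2 -1.50 ± 0.37, adjusted p = 0.0934) were the genes lower at 4w. No pathway gene was called without ECs 4w replicate 1, nor without replicate 2, and 21 were called without TFCs-CpCs 4w replicate 1.

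**Figure D4:**
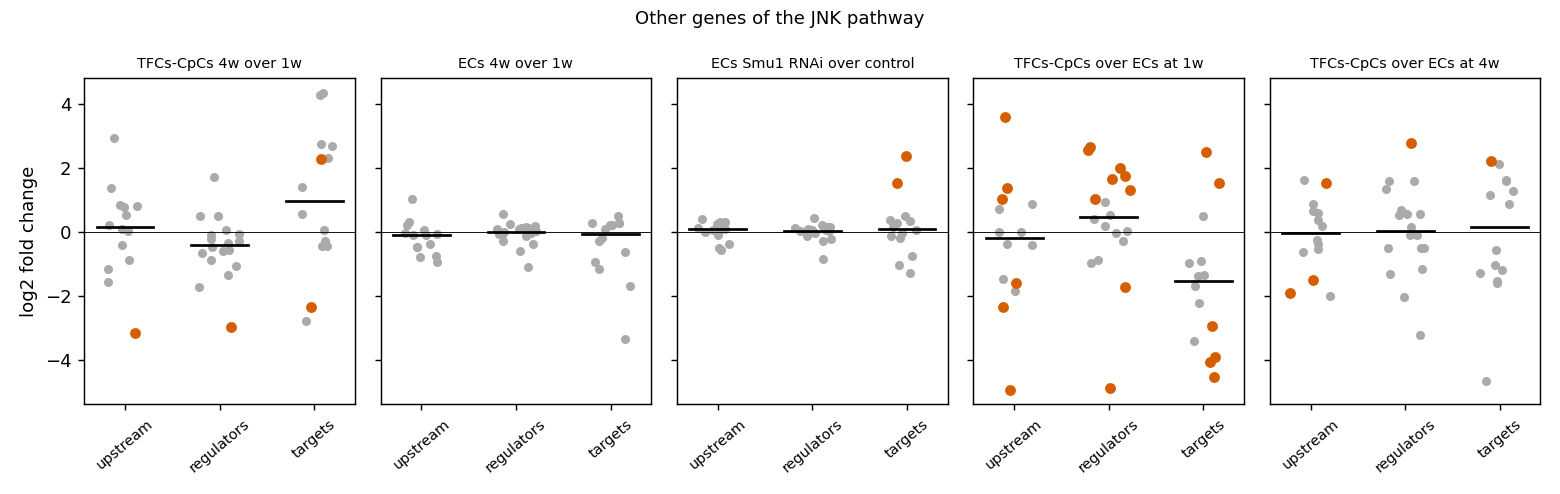
Log2 fold change of the other pathway genes by list (upstream genes, regulators, targets) in the 5 comparisons, with 1 point per gene, calls in orange and a bar at the list median. 2 target genes are called higher in Smu1 RNAi ECs, and in TFCs-CpCs against ECs at 1w the target list has its median at -1.54.

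Over the 12 libraries, the genes whose levels followed those of grnd most closely, by Pearson correlation of log2(cRPKM + 1) over 8633 genes, were CG14397 (r = 0.976), bbc (0.935) and Cyp4p3 (0.925). CG14397 was, like grnd, at 0 in both TFCs-CpCs 1w libraries and highest at 4w, with 2.49 and 6.16 cRPKM. For wgn they were cert (0.986), CG7990 (0.986) and SERCA (0.983), a calcium pump gene, which was at 404 and 408 cRPKM in young TFCs-CpCs and at 104 and 114.6 in old ones. These correlations describe 12 libraries that share their groups and, for grnd, rest on values at or near 0 in most of them.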

How the data were processed

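Reads were mapped to dm6 with vast-tools by the authors, whose deposited tables give each gene's raw counts and cRPKM (corrected RPKM, per mappable length and library depth). cDNA was amplified by PCR from few cells, so that intervals and limits from counts cover counting error only. Libraries are pooled sorts, 2 per group. cRPKM equalled CPM scaled by 1 constant per gene, within 0.285% in 1655 genes. Gene names came from the Ensembl annotation of the same build.

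Genes that reached 10 counts in 2 or more of a comparison's 4 libraries were tested on their counts with edgeR 4.0.16 (TMM, quasi-likelihood test, Benjamini-Hochberg adjustment over all genes tested), with a call at a log2 change of 1 or more in size and an adjusted p under 0.1. SEs are the fold change over the square root of F. Alternatives were DESeq2 1.42.0 Wald tests, limma 3.58.1 on log2(cRPKM + 1) or log2(cRPKM + 0.1), other filters, thresholds and scalings, a replicate block, and leaving out each library (a lone library of a group being assumed to vary like the other group). An exact permutation test of 2 against 2 libraries cannot reach 0.05 and was not run. The code was tested on simulated data with large changes, of a median fitted size of 2.99 to 3.04 on the log2 scale. They were placed in well-counted genes at a single fixed dispersion. The fits recovered 199 or 200 of 200 changed genes per comparison, with 14 to 33 other genes called. Recovery of smaller changes or in noisier libraries was not tested. The study's reporting summary states that females of an ageing replicate were divided from 1 batch, and that both RNAi genotypes shared vials or were grown alike and handled in parallel. The correlation of same-numbered deviations was -0.02 for ageing ECs, 0.22 for the RNAi pair and -0.04 for TFCs-CpCs, where the study's supplement numbers the replicates differently from the labels, so that the same number may not mark a pair. The members and all gene lists were chosen with earlier results of these data known. Named genes are all 9 members, up to 3 called genes per list and comparison with the largest fold, genes overlapping a member, and the 3 genes most like grnd or wgn.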

Additional observations from a re-analysis of the deposited data

Results flagged for a closer look

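Among the 56 members and pathway genes, 5 had ages that did not overlap in either cell group and moved in opposite directions in TFCs-CpCs and ECs, the same share as among all genes (8.9%, 786 of 8833), so that the count is no result about these genes. The difference between the cell groups was not tested. The values below are log2 ratios of mean cRPKM, in TFCs-CpCs less those in ECs. They depend on the scale, as the median of all genes on log2(cRPKM + 1) stood at 0.22 in ageing TFCs-CpCs and at -0.08 in ageing ECs. For puc the difference was 0.89 (0.52 in TFCs-CpCs and -0.37 in ECs). For Mmp1 it was 3.79 (2.56 and -1.23), its ECs values being 105 and 85.5 cRPKM at 1w against 30.2 and 51.1 later. For Mekk1 it was 1.81 (1.65 and -0.16). For Uev1A, a ubiquitin-conjugating enzyme variant, it was -0.85 (-0.60 and 0.25), and for cher -2.51 (-2.08 and 0.43).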

How the results depend on the processing

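Of 556 member values under alternatives, 534 stayed on their side of the threshold with their direction kept or, for 63, a sign change within 1 SE of 0, 8 came to pass it, 11 no longer passed it and 2 moved in size. The 1 reversal was Jra in Smu1 RNAi, at 0.26, which ranged from -0.19 (without Smu1 RNAi replicate 1) to 0.605 without 1 library. Without 1 library, members called numbered 2 to 4 between cell groups at 1w and 0 to 3 at 4w, and pathway genes called numbered 0 to 11 in ageing TFCs-CpCs and 0 to 21 between cell groups at 4w. For the 4w cell groups, members called were 2 with DESeq2, 0 at an adjusted p under 0.05, 3 with all 12 libraries in one fit and 2 with no filter; pathway genes were 15, 1, 13 and 9, and 10 at a mean of at least 5 cRPKM. Pathway genes in ageing TFCs-CpCs (4) were 13 with DESeq2, 2 at 0.05, 14 with all 12 libraries and 13 with no filter. They were 1 in ageing ECs with DESeq2, and 0 in Smu1 RNAi with all 12 libraries in one fit. In TMM-scaled CPM 8 members, not 5, were highest in a TFCs-CpCs group. With the replicate block, members called were 0 in ageing ECs, 0 in Smu1 RNAi, 4 at 1w and 1 at 4w, as without it, and pathway genes 0, 2, 22 and 6, with 6 in ageing TFCs-CpCs, where same-numbered libraries may not be pairs; over all genes calls went from 11 to 18 in ageing ECs and from 110 to 259 in Smu1 RNAi. All-gene calls in ageing TFCs-CpCs were 479, against 1423 with DESeq2, 287 at 0.05, 1665 with all 12 libraries, 1206 with no filter and 172 to 1246 without 1 library. In ageing ECs they were 11, against 113, 40 (all 12 libraries), 63 (no filter), 7 (limma) and 1 to 32. In Smu1 RNAi they were 110, against 1 with all 12 libraries and 69 at 5 cRPKM. At 1w between cell groups 3172 became 1987 at 0.05, 4761 with all 12 libraries and 1944 without ECs 1w replicate 1. At 4w 606 became 1905 with DESeq2, 224 at 0.05, 2608 with all 12 libraries, 960 and 1053 with limma, 1287 with no filter and 0 to 2285 without 1 library. In ageing TFCs-CpCs, whose values chose the set, members within the fold and p limits of a call are a description only (2, and 1 to 2 without 1 library). The causes were not tested.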
